A study of Homo sapiens with 6 samples.

Results

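The genes described here encode the subunits of the oxidative phosphorylation complexes that are made from nuclear DNA. They were chosen by gene symbol alone, from the prefixes Nduf, Sdh, Uqcr, Cox4 to Cox8 and Atp5, and comprised 86 of the 21872 rows of the count table: 38 for complex I, 4 for complex II, 8 for complex III, 19 for complex IV and 17 for ATP synthase. A count in at least 1 library was present for 82 of them. The filter on low counts left 78 for the test, and these 78 are called the tested subunits below. The other 8 were Cox6b2, Cox7b2, Cox8b and Cox8c, which had 0 counts in every library, and Cox4i2, Cox6a2, Cox7a1 and Ndufa4l2, which had too few.

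The RNA came from MOC2, a cell line grown from an oral squamous cell carcinoma of the mouse, and made up 3 control libraries and 3 libraries whose genotype label is HuR knockout. Both groups were treated with lentiviral particles at a multiplicity of infection of 25 for 18 hours and grown for a further 72 hours: the control group with particles carrying a control CRISPR/Cas9, the other with particles carrying CRISPR/Cas9 against HuR, an RNA-binding protein encoded by Elavl1. The labels say that a single clone was taken for the loss of HuR and do not give a separate clone for each knockout library. The p-values thus measure only how far these 6 libraries spread, which may be technical. The titles call these libraries knockdown, and the sample labels name human as the species, whereas the gene symbols and the series title are those of mouse.

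Oxidative phosphorylation takes place in the inner mitochondrial membrane. Complex I takes electrons from NADH and complex II from succinate, complex III passes them from coenzyme Q to cytochrome c, and complex IV hands them to oxygen. Complexes I, III and IV pump protons as they do so, and ATP synthase lets the protons flow back to drive the synthesis of ATP. Each complex except complex II joins nuclear-encoded subunits, which are imported into the organelle, to subunits made inside it, so that both genomes have to be matched in output.

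Library totals were 16158516 to 21294330 counts, after 1704 rows of the table had been divided by 11 as described under processing; of the subunits only Ndufa4l2 stood in such a row. The Elavl1 values, in CPM (counts scaled to the library total, as usual for sequencing), were 107, 120 and 117 in control libraries 1 to 3 against 116, 114 and 105 in knockout libraries 1 to 3, so its mRNA level does not check the labels. The summed epithelial markers, 8 genes, were at 5048 to 6532 CPM in control and 1357 to 2384 CPM in knockout libraries. Epcam, Cdh1, Krt8, Krt18, Krt14 and Cldn4 were below every control library in each knockout library, although Krt14 did not pass (adjusted p = 0.087 by edgeR). Dsp overlapped between the groups. Krt5 went the other way, with each knockout library above each control library, but did not exceed 2.29 CPM. The summed fibroblast markers, 9 genes of which Lum was at 0 everywhere and Col1a2, Dcn, Thy1 and Postn were under 1 CPM, were at 3.73 to 8.42 CPM in control and 408 to 430 CPM in knockout. The part of these markers in the results below was not tested. Knockout library 3 stood apart from the other knockout libraries across all genes and also for the subunits, and counts are therefore given with and without it.

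The subunit mRNAs changed little. With edgeR's quasi-likelihood test, adjusted over all 12293 genes tested, 10 of the 78 tested subunits rose in knockout and 0 fell, or 12.8%, where 35.7% of all genes changed. Of all genes 20.3% rose and 15.4% fell. At an unadjusted p under 0.05 there were 15 of the 78 subunits, all of them higher in knockout, against 5702 of all 12293 genes. DESeq2 and limma-voom each called 0 subunits lower. CPM did not overlap between the groups for 21 subunits, 19 above and 2 below control, against 57.6% of all genes. Among the 9286 genes that averaged 10 CPM or more, 33.3% changed and 56.9% did not overlap.

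The fitted differences were also small in size. The log2 fold changes of the tested subunits, knockout minus control, ran from -0.42 to 1.01 with a median of 0.12, where the median over all genes was 0.03. For 72 of 78 subunits, or 92.3%, the value lay within 0.5 of 0, as it did for 51.0% of all genes. The median size regardless of sign was 0.16 on the log2 scale for the subunits and 0.49 for all genes. The 95% intervals lay wholly within 1 log2 unit of 0 for 74 of the 78. The number of calls moved with the libraries included. Without control library 1, 2 or 3 the count of 10 fell to 4, 2 and 1, and the share of all genes called fell to 21.5, 18.4 and 18.8%. Without knockout library 1 or 2 the count fell to 6 and 7, and without knockout library 3 it rose to 27. The share of all genes called without knockout library 1, 2 or 3 was 35.25, 28.46 and 48.28%. No subunit was called lower under any of these.

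**Figure D1:**
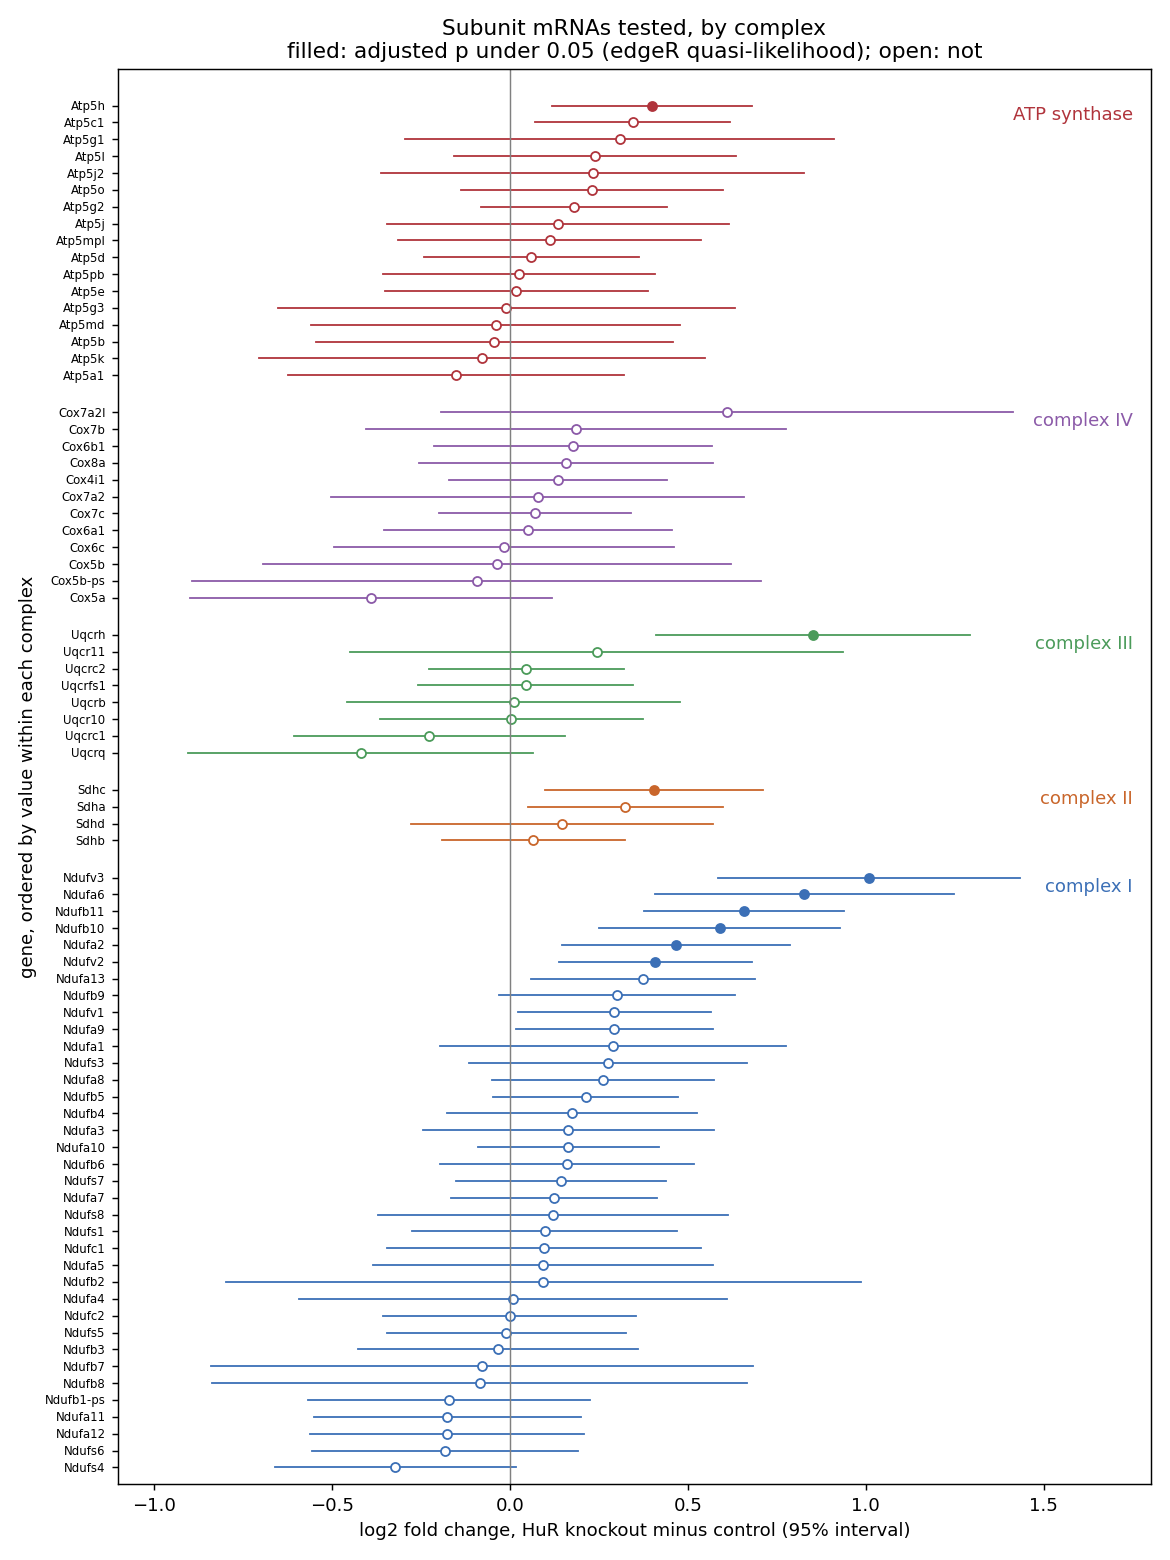
Log2 fold change (knockout minus control) of 77 of the tested subunits, 1 point per gene with its 95% interval as a line, grouped by complex and ordered by value; filled points had an adjusted p under 0.05 and open points did not. All 9 filled points lie above 0, 6 of them in complex I, and 71 of the 77 points lie within 0.5 of 0.

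Complex I held 7 of the 10 called subunits and 37 of the 78 tested ones. Of these 37 subunits 7 rose and 0 fell, or 18.9%, where 20.3% of all genes rose and 15.4% fell. Their median log2 fold change was 0.16. Ndufv3, Ndufa6, Ndufb11 and Ndufb10 had the largest changes and are described by a set rule; Ndufa2 and Ndufv2 were picked after their values were seen.

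Ndufv3, an accessory subunit of the NADH-binding arm, was at 38.8, 29.5 and 31.4 CPM in control and 69.0, 76.2 and 55.3 CPM in knockout. Each knockout library was above each control library. The means were 33.2 ± 4.96 and 66.9 ± 10.6 CPM (SD, n = 3 each), a 2.01-fold rise (log2 1.01, SE 0.177, adjusted p = 0.0065 by edgeR). Ndufv3 was the only subunit that passed the test in all 15 alternative analyses.

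Ndufa6, an accessory subunit of the LYR family that sits on the matrix arm, was at 43.0, 38.9 and 40.4 CPM in control and 63.1, 63.3 and 90.8 CPM in knockout. Knockout library 3 was here the highest of the 6. The rise was 1.77-fold (log2 0.83, SE 0.175, adjusted p = 0.0127 by edgeR).

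Ndufb11 and Ndufb10 belong to the membrane arm, the part of complex I that pumps protons. Ndufb11 was at 63.0, 59.0 and 54.4 CPM in control and 85.3, 97.9 and 95.2 CPM in knockout, a 1.58-fold rise (SE of the log2 value 0.117, adjusted p = 0.0068 by edgeR). Ndufb10 was at 63.4, 62.9 and 56.9 CPM in control and 86.6, 108 and 81.4 CPM in knockout, a rise of 0.59 on the log2 scale (SE 0.142, adjusted p = 0.0196 by edgeR). For both genes the lowest knockout library was above the highest control library.

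The 7 nuclear-encoded core subunits of complex I carry the flavin and the iron-sulfur clusters of the matrix arm or bind next to them. All 7 had positive log2 fold changes, with a median of 0.28, and 2 of them passed the test. Ndufv2, which holds an iron-sulfur cluster of the NADH-binding arm, was at 95.4, 94.9 and 85.1 CPM in control and 128, 123 and 114 CPM in knockout (log2 0.41, adjusted p = 0.0317 by edgeR). Ndufv1, the subunit that binds NADH and the flavin, also did not overlap between groups, with a log2 value of 0.29, but did not pass (adjusted p = 0.088 by edgeR). For 4 core subunits the groups overlapped, Ndufs1 and Ndufs3 among them, with log2 values of 0.10 and 0.28.

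Among the 29 accessory subunits of complex I, 5 rose and the median log2 fold change was 0.16. The fifth of these, Ndufa2, a small matrix-arm subunit, was at 58.6, 61.5 and 58.0 CPM in control and 80.2, 94.4 and 71.7 CPM in knockout (log2 0.47, adjusted p = 0.0352 by edgeR). Of the 24 accessory subunits that did not pass, Ndufs4 was the one with every knockout library below every control: 45.9, 45.7 and 42.7 CPM in control and 39.9, 36.9 and 30.6 CPM in knockout. Its log2 value of -0.32 had a 95% interval of -0.66 to 0.02 (adjusted p = 0.123 by edgeR). Without control library 1, 2 or 3, the 7 calls of complex I were reduced to 3, 2 and 1.

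**Figure D2:**
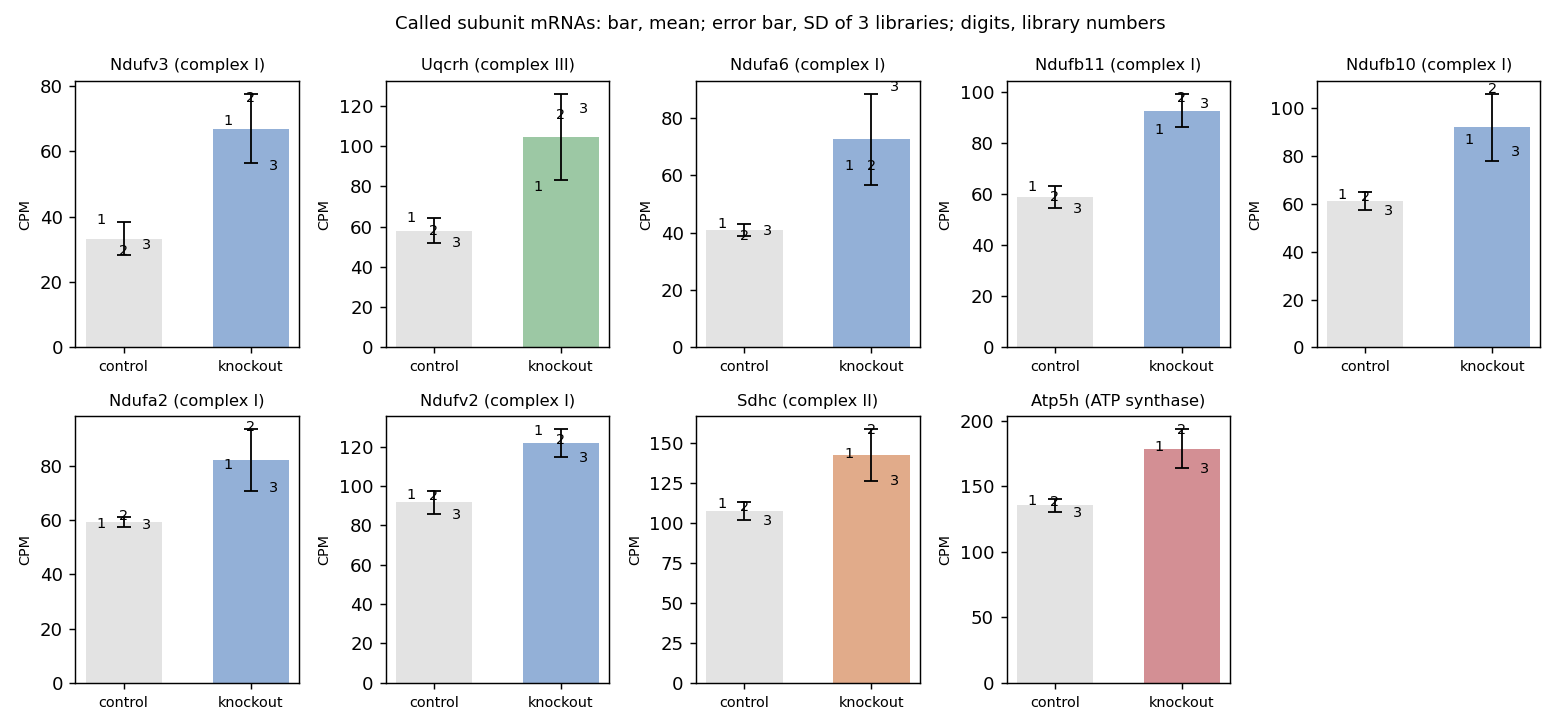
CPM of 9 of the subunits that passed the test, 1 panel per gene with its own axis from 0; bars are group means, error bars the SD of 3 libraries, and the digits 1 to 3 mark the single libraries. In each panel the 3 knockout digits lie above the 3 control digits.

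Complex II, succinate dehydrogenase, is the only complex made wholly from nuclear genes, and all 4 of its subunits had positive log2 fold changes, with a median of 0.24. One passed the test. Sdhc, a membrane anchor that helps to bind heme and coenzyme Q, was at 112, 110.2 and 101.35 CPM in control and 143, 158 and 126 CPM in knockout (log2 0.40, SE 0.129, adjusted p = 0.0486 by edgeR). Its groups did not overlap, but the call lay close to the threshold and was kept in 4 of 15 alternatives.

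The other 3 subunits of complex II did not pass. Sdha, the flavoprotein that oxidises succinate, was at 218, 230.4 and 221 CPM in control and 286, 292 and 259 CPM in knockout (log2 0.32, adjusted p = 0.068 by edgeR). Sdhb, the iron-sulfur subunit that joins Sdha to the membrane, was at 120.05, 119 and 107 CPM in control and 121, 119 and 122 CPM in knockout (log2 0.07, 95% interval -0.19 to 0.32). Sdhd, the other anchor, was at 101.42, 98.6 and 81.5 CPM in control and 109, 121 and 82.0 CPM in knockout, with a log2 value of 0.15. Thus Sdha did not overlap between groups, whereas Sdhb and Sdhd did.

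In complex III, 1 of 8 subunits rose and 0 fell, with a median log2 fold change of 0.03. Uqcrh, the hinge protein near the cytochrome c docking side, was at 64.3, 57.7 and 51.8 CPM in control and 79.9, 116 and 118 CPM in knockout. Knockout library 1 lay between the controls and the other knockout libraries. The means were 57.9 ± 6.25 and 105 ± 21.5 CPM (SD, n = 3 each), a 1.81-fold rise (log2 0.85, SE 0.184, adjusted p = 0.0138 by edgeR); the call was lost without control library 2 or 3.

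Uqcrq, a small subunit next to cytochrome b, had the lowest log2 fold change of all tested subunits. It was at 195, 206 and 182 CPM in control and 177, 154 and 105 CPM in knockout, so that each knockout library was below each control. The log2 value of -0.42 had a 95% interval of -0.90 to 0.07 and did not pass (adjusted p = 0.152 by edgeR). The core proteins Uqcrc1 and Uqcrc2 and the Rieske iron-sulfur protein Uqcrfs1 had log2 values of -0.23, 0.05 and 0.04, with overlapping groups.

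No complex IV subunit passed the test. Of 12 tested, 0 were called by edgeR, 0 had an unadjusted p under 0.05 and 0 were called by DESeq2 or limma-voom, and the median log2 fold change was 0.07. All 12 overlapped between the groups. The subunits with the smallest p were Cox5a, which was at 147, 151 and 129 CPM in control and 130, 120 and 76.4 CPM in knockout (log2 -0.39, adjusted p = 0.197 by edgeR), and Cox7a2l. The rows named Cox5b and Cox5b-ps, the second a pseudogene, may share reads and are uncertain.

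Cox7a2l, which links complexes III and IV into supercomplexes, was high in 1 knockout library alone. It was at 114, 104 and 91.7 CPM in control and 114, 109 and 250 CPM in knockout. Knockout libraries 1 and 2 lay at the upper end of the controls while knockout library 3 was far above them. The log2 value was 0.61 (95% interval -0.19 to 1.41, adjusted p = 0.200 by edgeR), and without knockout library 3 it was 0.11.

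Several complex IV subunits exist as a common form and a form typical of muscle, lung or testis, and the common forms were the ones measured. Cox4i1 was at 493, 481 and 435 CPM in control and 521, 557 and 471 CPM in knockout, whereas its counterpart Cox4i2 did not exceed 0.273 CPM. Cox6a1 was at 193, 181 and 157 CPM in control and 199, 204 and 147 CPM in knockout, and Cox7a2 at 74.2, 73.4 and 60.6 CPM and 81.4, 90.4 and 48.2 CPM. In all 3 of these the groups overlapped. Cox7a1, the muscle counterpart of Cox7a2, did not exceed 0.442 CPM.

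Cox6b1, Cox7b and Cox8a, whose counterparts Cox6b2, Cox7b2, Cox8b and Cox8c had 0 counts, had log2 values of 0.18, 0.18 and 0.16 with overlapping groups. Cox6a2, the heart and muscle form of Cox6a1, was the exception among the rare forms. It was at 0.0936, 0.197 and 0.122 CPM in control and 0.654, 0.049 and 4.23 CPM in knockout, so that nearly all of its signal came from knockout library 3. The filter removed it from the test of all 6 libraries, and without the filter it did not pass (log2 3.46, adjusted p = 0.105 by edgeR). Without control library 1, 2 or 3 it did not pass either (adjusted p = 0.232, 0.203 and 0.226), whereas without knockout library 2 it did (adjusted p = 0.0282). In the same library the 8 striated muscle markers summed to 5.57 CPM, of which Tnnt3 made 5.27 CPM, against at most 0.763 CPM in any other library; Myh2 and Actn2 were at 0 everywhere. Their part in the result was not tested.

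Ndufa4 carries a complex I name but is found with complex IV. It was at 121, 133 and 114 CPM in control and 140.3, 152 and 78.3 CPM in knockout, which spans the controls on both sides (log2 0.01, 95% interval -0.59 to 0.61), and its sign changed with the scaling. Its hypoxia-linked relative Ndufa4l2 had 0 counts in all control libraries and 1.09, 0.147 and 0 CPM in knockout, in a row that had been divided by 11.

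In ATP synthase, 1 of 17 subunits rose and 0 fell, with a median log2 fold change of 0.11. Atp5h, subunit d of the peripheral stalk that holds the catalytic head still, was at 139, 138 and 129 CPM in control and 179.8, 193 and 163 CPM in knockout. The groups did not overlap (log2 0.40, SE 0.118, adjusted p = 0.0381 by edgeR), and the call was lost without any 1 of the control libraries or without knockout library 1 or 2. Atp5c1, the central shaft of the head, was at 207, 208 and 192 CPM in control and 261, 269.6 and 241 CPM in knockout, and narrowly did not pass (log2 0.35, adjusted p = 0.056 by edgeR).

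The catalytic subunits themselves did not pass. Atp5b, the catalytic beta subunit, was at 1651, 1714 and 1558 CPM in control and 1853, 1798 and 1126 CPM in knockout (log2 -0.04, 95% interval -0.54 to 0.46). Atp5a1, the alpha subunit, was at 1050.5, 1120 and 1045 CPM in control and 1096, 1099 and 701 CPM in knockout (log2 -0.15). In both, knockout library 3 was the lowest of the 6 libraries while the other 2 knockout libraries lay within or above the controls.

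The rotor ring of ATP synthase is built from a single protein encoded by 3 genes that differ in their import sequence. Atp5g1 was at 145, 164 and 140.0 CPM in control and 211, 228 and 118 CPM in knockout. Atp5g2 was at 145, 153 and 139 CPM in control and 161, 174 and 160.5 CPM in knockout. Atp5g3 was at 211, 218 and 199 CPM in control and 232, 265 and 126 CPM in knockout. None of the 3 passed (log2 0.31, 0.18 and -0.01), and Atp5g2 alone did not overlap between groups.

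**Figure D3:**
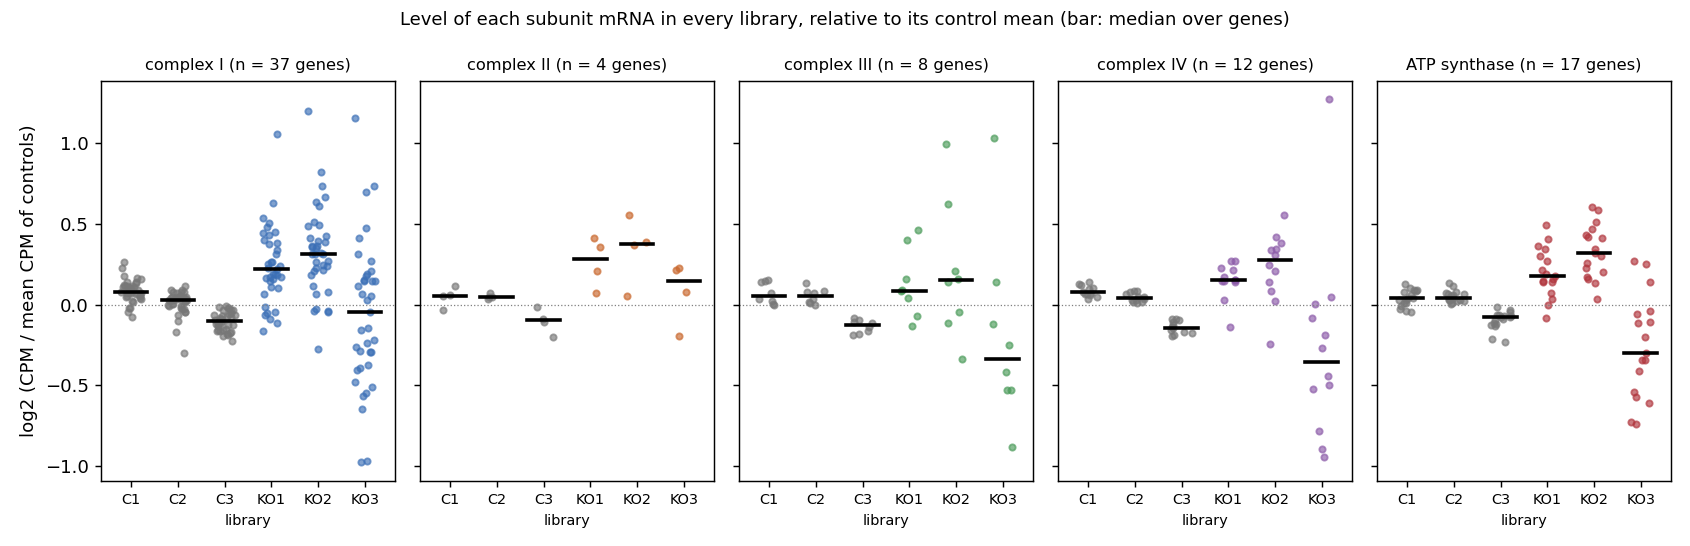
Log2 ratio of each tested subunit's CPM to its control mean, for control (C1 to C3) and knockout (KO1 to KO3) libraries, 1 panel per complex; points are genes and bars are medians. In every complex the medians of knockout libraries 1 and 2 lie above 0, and in complexes I, III, IV and ATP synthase that of knockout library 3 lies below 0.

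The knockout libraries did not behave alike. The median log2 ratio of the tested subunits to their control means was 0.18 and 0.31 in knockout libraries 1 and 2 and -0.19 in knockout library 3, and 0.07, 0.03 and -0.11 in control libraries 1 to 3. Over all genes the medians of the knockout libraries were 0.01, 0.02 and 0.01. Knockout libraries 1 and 2 had 59 and 63 subunits above every control library, knockout library 3 had 24. Below every control library the numbers were 2, 4 and 42. As shares of the subunits these were 75.6, 80.8 and 30.8% above and 2.56, 5.13 and 53.8% below, where all genes had 42.6, 43.7 and 45.8% above and 39, 41.4 and 44.3% below. For 56 of 78 subunits both knockout libraries 1 and 2 were above all controls, and in 28 of these 56 knockout library 3 was below all controls.

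The gap was present in all 5 complexes. In ATP synthase the medians were 0.18, 0.32 and -0.30 for knockout libraries 1, 2 and 3, and knockout library 3 was the lowest knockout library for 17 of 17 subunits. In complex IV they were 0.15, 0.28 and -0.36, and in complex III 0.09, 0.15 and -0.34. The gap was narrower in complex I, with 0.22, 0.32 and -0.05, and in complex II, with 0.28, 0.38 and 0.15. These differences between the libraries of one group have no replicate and were not tested.

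Knockout library 3 was the lowest knockout library for 68 of 78 subunits (87.2%) and the highest for 7 (8.97%), against 41.6% and 43% of all genes. Its log2 value minus the mean of the other 2 had a median of -0.37, and it was at least 1 log2 unit lower for 5 rows, Ndufb7, Ndufb8, Cox5b, Cox5b-ps and Uqcr11. Ndufb8, a membrane-arm subunit of complex I, shows the form: 98.6, 97.9 and 83.3 CPM in control and 108.4, 108.2 and 47.3 CPM in knockout. These 5 rows were picked after their values were seen. Against this, Cox7a2l, Ndufa6 and Uqcrh were highest in knockout library 3.

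**Figure D4:**
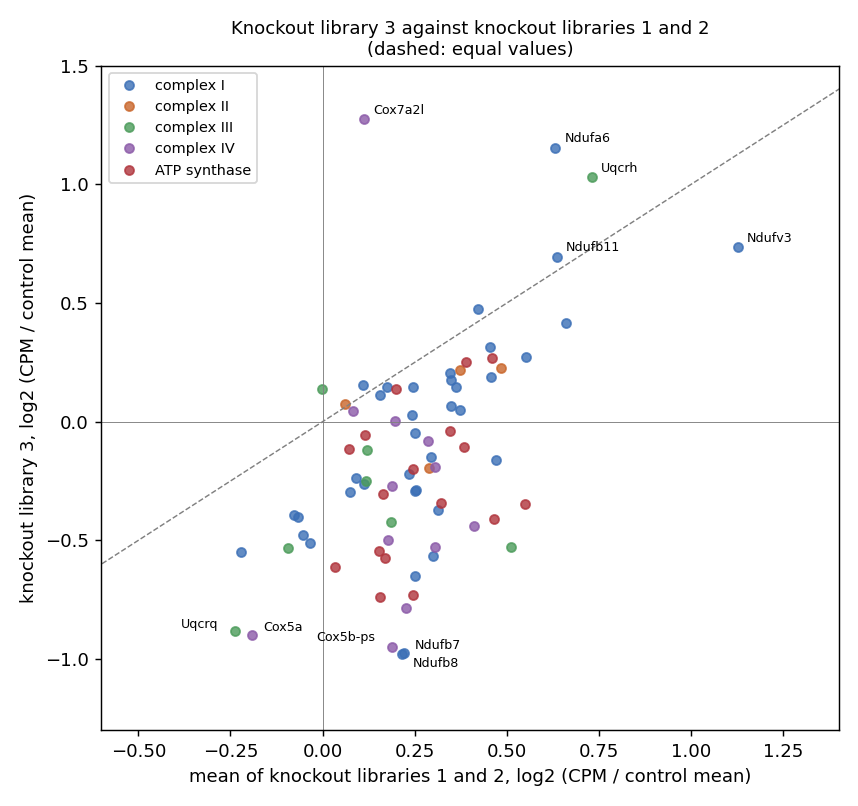
Log2 ratio to the control mean in knockout library 3 (vertical axis) against the mean of knockout libraries 1 and 2 (horizontal axis), 1 point per tested subunit, coloured by complex; the dashed line marks equal values. Of the 78 points 70 lie below the line, and Cox7a2l, Ndufa6 and Uqcrh are among the 8 above it.

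The subunits' share of all counts moved with these values. It was 1.09, 1.08 and 1.01% in control libraries 1 to 3 and 1.201, 1.270 and 0.9057% in knockout libraries 1 to 3. The share of ribosomal protein mRNAs was 8.31, 8.34 and 7.75% in control and 8.58, 8.84 and 10.3% in knockout. The 7 leukocyte markers summed to 2.41 to 6.51 CPM in control and to 3.27, 1.81 and 37.1 CPM in knockout. Of the last, Cd68 made 36.9 CPM; the other 6 were under 1 CPM in every library, Csf1r was lower in each knockout than in each control library, Ptprc and Cd3e were at 0 in all knockout libraries and Adgre1 was at 0 everywhere. The part of these values in the gap was not tested. In bulk RNA, fewer cells of a type and less RNA per cell cannot be told apart.

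Without knockout library 3, 27 of 78 subunits rose and 0 fell, or 34.6%, where 48.3% of all genes changed in that fit. They were 14 subunits of complex I, 2 of complex II, 2 of complex III, 2 of complex IV and 7 of ATP synthase, and the median log2 fold change was 0.25. Among those gained were Sdha (log2 0.38), Atp5c1 (0.39), Atp5g1 (0.55), Uqcr11 (0.52), Cox7b (0.42) and Cox8a (0.31). In that fit 2 knockout libraries stand against 3 controls and the library was left out with its values known.

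Beside the subunits, 12 lists of other genes of the pathway were read: assembly factors of the 5 complexes, electron carriers, coenzyme Q synthesis, regulators, the TCA cycle, protein import, and the expression of mitochondrial DNA and its own mRNAs. Of the 112 tested genes of all 12 lists, 11 rose and 13 fell, where 20.3% of all genes rose and 15.4% fell. Without knockout library 3 the numbers were 19 and 25, with 48.3% of all genes called. Without control library 1, 2 or 3 they were 4 and 6, 2 and 4, and 2 and 4, with 21.5, 18.4 and 18.8% of all genes called. Genes of these lists passed the test in both directions, as did genes at large. The difference between subunits and lists was not tested.

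Of 15 complex I assembly factors, 1 rose and 2 fell. Ndufaf4, which acts early in building the matrix arm, was at 30.2, 39.3 and 31.8 CPM in control and 20.2, 11.6 and 9.74 CPM in knockout, 2.44-fold lower (log2 -1.29, adjusted p = 0.0171 by edgeR). Timmdc1, a membrane-arm assembly factor, was 1.57-fold lower (log2 -0.65, adjusted p = 0.0127), and Tmem126b, of the same assembly complex, was 1.51-fold higher (log2 0.60, adjusted p = 0.0425). All 3 calls were lost without control library 2 or 3.

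Of 6 complex III assembly factors 2 rose and 1 fell, and the 3 are partners in making cytochrome b. Uqcc3 and Uqcc2 rose (log2 0.75 and 0.50, adjusted p = 0.0358 and 0.0191 by edgeR) and Uqcc1 fell (log2 -0.52, adjusted p = 0.0265). Of 20 complex IV assembly factors, Cox14 and the copper-route factor Cox19 rose (log2 0.59 and 0.58) and Coa5 fell (log2 -0.45). In the ATP synthase list Tmem242 rose, 1 of 4, and in the complex II list 0 of 4 passed, with 0 at an unadjusted p under 0.05 and 0 by DESeq2 or limma-voom. Without control library 2 or 3 none of these 7 genes passed.

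Of the mobile carriers and the subunits that the symbol rule leaves out, cytochrome c itself fell. Cycs, the protein that shuttles electrons from complex III to complex IV, was at 92.7, 101.42 and 88.3 CPM in control and 65.2, 62.04 and 34.9 CPM in knockout. Each knockout library was below each control, 1.74-fold lower (log2 -0.80, SE 0.242, adjusted p = 0.0419 by edgeR), and the call was lost without any 1 control library. Cyc1, the cytochrome of complex III that passes electrons to Cycs, was at 214, 224 and 193 CPM in control and 186, 163 and 102 CPM in knockout (log2 -0.48, adjusted p = 0.147), and Ndufab1, the acyl carrier protein held by complex I, had a log2 value of -0.44 (adjusted p = 0.106).

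In coenzyme Q synthesis 3 of 11 genes rose and 1 fell, or 36.4%, close to the 35.7% of all genes that changed. Coq8b, an atypical kinase of the pathway, was at 11.7, 9.43 and 11.5 CPM in control and 23.8, 25.8 and 33.6 CPM in knockout, 2.54-fold higher (log2 1.35, adjusted p = 0.0031 by edgeR), and passed in all 15 alternatives. Coq8a, its paralog, was at 0.468, 0.0982 and 0.182 CPM in control and 0.599, 1.76 and 7.10 CPM in knockout (log2 3.59, adjusted p = 0.0390). Knockout library 3 was the highest by far for Coq8a, which passed in 9 of 15 alternatives, with log2 values of 2.20 to 4.44. The call was lost with limma-voom, with the replicate number as a block, without any 1 of the control libraries and without knockout library 2. Coq9, a lipid-binding protein of the pathway, rose (log2 0.71, adjusted p = 0.0168) and Coq5, a methyltransferase, fell (log2 -0.47, adjusted p = 0.0399), and neither passed when any 1 of the control libraries was left out; Coq5 completes the count and was picked after its value was seen.

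Those regulators of nuclear genes for respiration that passed the test fell. Of 8 tested, 0 rose and 4 fell, where 20.3% of all genes rose and 15.4% fell. By DESeq2 or limma-voom, or at an unadjusted p under 0.05, 0 were called higher. Pprc1, a coactivator of the PGC-1 family, was at 185, 246 and 224 CPM in control and 121, 124 and 95.1 CPM in knockout, 1.93-fold lower (log2 -0.95, SE 0.168, adjusted p = 0.0067 by edgeR). Gabpb1, a subunit of the ETS factor that binds many promoters of respiratory genes, was at 44.3, 46.0 and 46.1 CPM in control and 32.3, 28.1 and 27.1 CPM in knockout (log2 -0.64, adjusted p = 0.0097). Both passed in all 15 alternatives.

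Esrra, the estrogen-related receptor alpha, was at 89.5, 76.9 and 79.2 CPM in control and 56.0, 50.5 and 58.0 CPM in knockout (log2 -0.58, adjusted p = 0.0119 by edgeR). Myc, the fourth, fell by 0.57 on the log2 scale (adjusted p = 0.0129) and is named to complete the count. For all 4 genes each knockout library was below each control library. Nrf1, Gabpa and Yy1, factors that bind the promoters of many subunit genes, did not pass, with log2 values of -0.22, 0.22 and 0.10. Nrf1 and Yy1 overlapped between the groups. Gabpa was above each control library in each knockout library, at 48.8, 55.8 and 55.9 CPM in control and 60.7, 64.6 and 61.1 CPM in knockout. Ppargc1a was under 0.639 CPM in every library and was not tested.

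**Figure D5:**
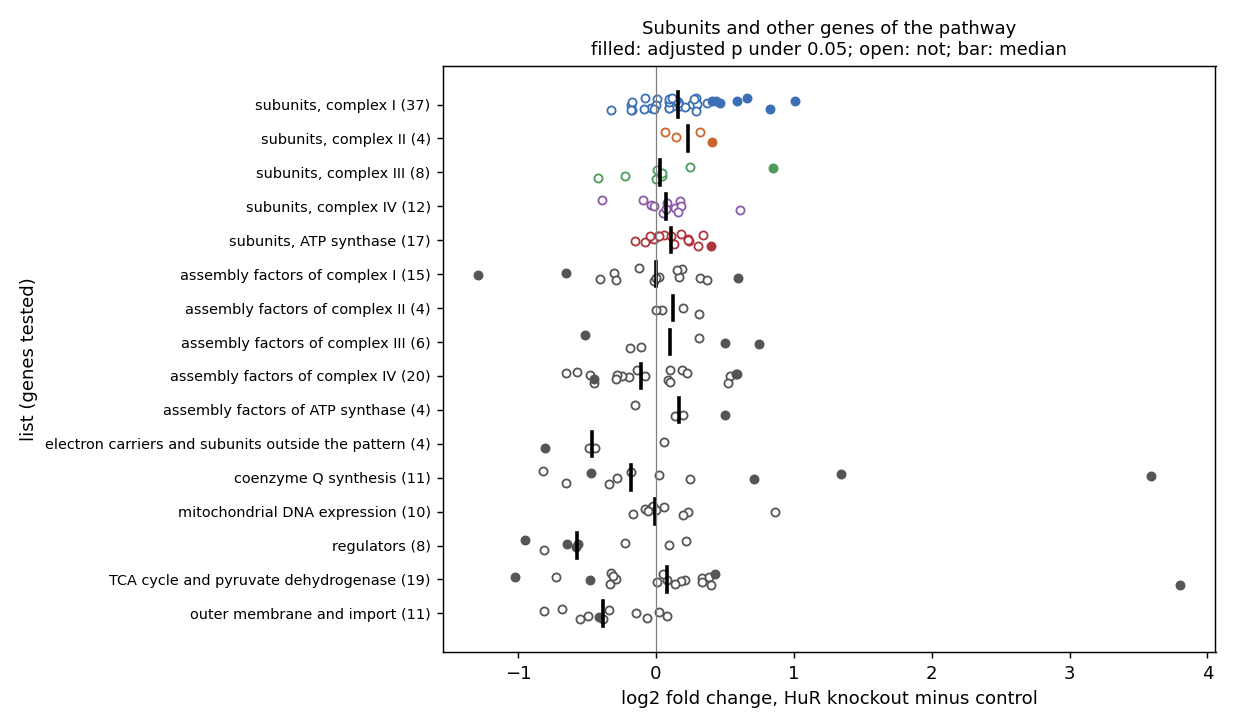
Log2 fold change (knockout minus control) of the tested subunits by complex and of the tested genes of the other lists, 1 row of points per list with the number tested; filled points passed the test and bars are medians. The 4 filled points of the regulator row lie below 0, and those of complex I, III and IV assembly, coenzyme Q synthesis and the TCA cycle lie on both sides of 0.

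The supply of electrons and the import of proteins were also read. Of 19 tested genes of the TCA cycle and pyruvate dehydrogenase, 2 rose and 2 fell, where 20.3% of all genes rose and 15.4% fell. Without knockout library 3 the numbers were 6 and 5, and with DESeq2 3 and 5. In those fits 48.3% and 43.0% of all genes were called, counting both directions. Without any 1 of the control libraries the numbers were 1 and 1, with 18.4 to 21.5% of all genes called. Pdk2, a kinase that inhibits pyruvate dehydrogenase, was at 2.39, 1.57 and 1.34 CPM in control and 7.57, 17.1 and 49.98 CPM in knockout (log2 3.80, adjusted p = 0.0095 by edgeR). Dlst, a subunit of 2-oxoglutarate dehydrogenase, was at 234, 260 and 243 CPM in control and 122, 100.5 and 141 CPM in knockout, 2.02-fold lower (log2 -1.02, adjusted p = 0.0038). Both passed in all 15 alternatives. Dlat fell and Pdhb rose, subunits of the same pyruvate dehydrogenase complex (log2 -0.48 and 0.43, adjusted p = 0.0227 and 0.0250); Pdhb is named to complete the count. Both calls were lost with the replicate number as a block and when any 1 of the control libraries was left out. That of Dlat was also lost without knockout library 2, and that of Pdhb without knockout library 1.

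Of 11 genes of the outer membrane and protein import, Tomm20, an import receptor, fell (log2 -0.41, adjusted p = 0.0419 by edgeR) and 0 rose; the call was lost when any 1 of the control libraries was left out. DESeq2 called 5 of the 11 lower, and edgeR called 6 lower without knockout library 3. In those fits 43.0% and 48.3% of all genes were called, counting both directions. Of 10 genes that copy or transcribe mitochondrial DNA, edgeR called 0, with 1 at an unadjusted p under 0.05; DESeq2 called 1 higher and limma-voom 0. Tfam, which packages mitochondrial DNA and starts its transcription, was at 38.1, 38.2 and 34.9 CPM in control and 38.4, 41.1 and 29.6 CPM in knockout. The 13 mRNAs of the mitochondrial genome itself were listed at 0 in all 6 libraries, although cells that respire transcribe them, so the 0 cannot be read as a level and the nuclear and mitochondrial subunits could not be compared.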

How the data were processed

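The data are 1 table of counts for 6 libraries. The authors deposited whole-number counts per gene symbol; STAR 2.7.1a, featureCounts and the build hg38 are listed, their roles unstated, per the submitters' processing notes. Rows carry mouse symbols. Annotation and strand setting: not given in the sources used here, so overlapping, antisense and near-identical genes may share reads. In 1704 rows, those at 0 in the first control library but not in all others, every value was a multiple of 11, and these rows were divided by 11; none of the 78 tested subunits was among them.

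Counts were filtered with filterByExpr and tested with edgeR 4.0.16 in R 4.3.3 (TMM scaling, robust dispersions, quasi-likelihood test, Benjamini-Hochberg adjustment over all 12293 genes, threshold 0.05). Every adjusted p in the text is from this test, except those of Cox6a2, which come from the fits named beside them. CPM use TMM-scaled totals, and the biological coefficient of variation was 28%. The totals of 16158516 to 21294330 counts per library and 3 libraries per group set the precision. On simulated counts for knockout against control over 12190 genes, 17% of 2-fold and 82% of 4-fold changes were recovered with 6 false calls. Most 2-fold and some 4-fold changes were thus missed in that simulation. It changed only a small part of the genes, whereas 35.7% of all genes were called in the data. The cutoffs after adjustment therefore differ, and the shares recovered cannot be carried over to the subunits.

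Libraries were grouped by their titles. Alternatives were other scalings, no filter, DESeq2 1.42.0, limma-voom (limma 3.58.1), the replicate number as a block, the values as deposited, the table without the divided rows, and leaving out each library. The symbol rule for the subunits uses no measured value, but it and the lists were proposed with earlier results of these data known, so no test of a list was made. Subunits with full values are, per complex, the called ones with the 4 largest changes (where fewer than 2 passed, the 2 with the smallest p), all Sdh genes and the isoform groups; from each other list, up to 3 called genes with the largest changes. Sequences were not used here, because 0 of the 86 symbols matched the reference tables, which are human. Some items that enter the counts are not reported here by name.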

Additional observations from a re-analysis of the deposited data

How the results depend on the processing

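Across all 15 alternatives 0 subunits were called lower, and the share of subunits called stayed below the share of all genes in each. The number higher, 10 as reported, was 9 with DESeq2 size factors, total counts, upper quartile factors or the values as deposited, 10 with limma-voom or without the divided rows, 14 with DESeq2's test, 6 without the filter and 5 with the replicate block, where complex I had 4. Complex II, 1 as reported, had 0 with DESeq2 size factors, total counts, upper quartile factors, no filter, the block or the values as deposited, and 2 with DESeq2's test; ATP synthase, 1 as reported, had 0 without the filter or with the block and 2 with DESeq2's test. Leaving out 1 library at a time gave 1 to 27 subunits higher, with 1 to 14 in complex I, 0 to 2 in complexes II, III and IV and 0 to 7 in ATP synthase, and 1166 to 3178 of all genes higher and 1130 to 2843 lower. Ndufv3 was called in 15 of 15, Ndufb11 in 14, Ndufa6 and Uqcrh in 13, Ndufb10 in 12, Atp5h, Ndufa2 and Ndufv2 in 8 and Sdhc in 4, each in the same direction throughout. The causes of these differences between the alternatives were not tested.

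Signs were compared for 49 genes: those named by the set rules, the called subunits and Elavl1. They changed for 7 of these, none of them called in the reported fit. Ndufa4 was at -0.0149 with DESeq2 size factors or test, -0.0212 without the filter, -0.0462 with limma-voom, -0.0435 with the block and between -0.166 and 0.254 without single libraries. Without single libraries Cox6a1 ranged from -0.056 to 0.19, Cox7a2 from -0.0981 to 0.307 and Cox7b from -0.0412 to 0.42. Sdhb ranged from -0.011 to 0.0892, Atp5g3 from -0.222 to 0.25 and Elavl1 from -0.0887 to 0.0061. Subunits outside these 49 genes also changed sign without knockout library 3. Among them, Atp5b moved from -0.04 to 0.16, Atp5a1 from -0.15 to 0.04 and Cox5b from -0.04 to 0.23. Cox5b-ps moved from -0.09 to 0.20, Ndufb7 from -0.08 to 0.22 and Ndufb8 from -0.08 to 0.22. Whether the replicate numbers pair the libraries is not known. Deviations of same-numbered libraries correlated at -0.0446, 0.294 and 0.0581 across genes, and those of differently numbered ones at -0.253 to 0.184. Being centred on 3 libraries per group, these values cannot settle it. Of the 8 subunits removed by the filter, 4 had no count at all; the other 4 did not pass without the filter.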
